A study of Homo sapiens with 12 samples.

Results

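Tamoxifen and raloxifene were compared at the same dose and time in T47D cells, an established human breast cancer line that expresses the estrogen receptor. The comparison sets the 2 tamoxifen libraries against the 2 raloxifene libraries, out of 12 libraries in all, and covers the 23375 genes, of 59410, that passed a filter on low counts. At the edge of that filter, TNNC1 passed with a mean of 3.25 counts over the 12 libraries, and ENSG00000243445 did not pass with a mean of 8.67, since the filter asks for enough counts in at least 2 libraries rather than for a mean. The readout was PRO-seq, a nuclear run-on in which engaged RNA polymerases add a few labelled nucleotides, so that the sequenced RNA reads ongoing transcription and not accumulated message. Cells of the first group spent 3 days in complete medium, which was RPMI with fetal bovine serum, and then had 100 nM tamoxifen for 1 h. Those of the second group had 100 nM raloxifene for 1 h after the same culture. Further groups of 2 libraries each serve as readouts that neither drug touched. They are 100 nM fulvestrant for 1 h in complete medium, 1 nM estradiol for 1 h in hormone-starved cells, vehicle (0.1% DMSO) for 1 h in hormone-starved cells and vehicle for 1 h in complete medium. All of them also spent 3 days in their medium, complete or hormone-starved. All groups share the cell line, and the complete medium holds the hormones of its serum, so both drugs were added to cells with an ongoing estrogen response.

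Tamoxifen and raloxifene are selective estrogen receptor modulators. Both occupy the ligand pocket of the receptor and move its C-terminal helix to a position that blocks the groove where coactivators bind. They antagonise estrogen in the breast and differ in other tissues, since tamoxifen is a partial agonist in the endometrium and raloxifene is not used for established breast tumours but for bone and for risk reduction. Tamoxifen is a triphenylethylene without a free phenolic hydroxyl group, and much of its activity in patients is carried by hydroxylated metabolites formed mainly in the liver. Raloxifene is a benzothiophene that carries free phenolic hydroxyl groups itself. Fulvestrant, a steroidal antagonist, additionally leads to loss of the receptor protein.

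The libraries held 7393181 and 6055972 counts for tamoxifen libraries 3 and 4, and 7856803 and 3682311 counts for raloxifene libraries 3 and 4. The other 8 libraries ranged from 4981796 to 7377576 counts. Whether both libraries of a group stem from different cultures is unstated, so the p-values speak for the spread of these libraries alone, and that spread may be technical. The 9 luminal breast markers all passed the filter, with a summed level of 5300 to 5580 CPM (counts relative to the library total after TMM scaling) with tamoxifen, 5070 to 5600 with raloxifene and 5870 to 5950 with vehicle. The defining markers of basal cells, fibroblasts, endothelium and blood summed to at most 15.2, 19.3, 10.1 and 2.91 CPM in any tamoxifen or raloxifene library. Of the 6 blood markers, 1 was at 0 in all tamoxifen, raloxifene and complete-medium vehicle libraries. In bulk libraries such as these, fewer cells of a type and less RNA per cell cannot be told apart.

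Raloxifene library 4 stood apart from the other 11 libraries. It was the shallowest, and it held 4158 counts in the 434 snoRNA genes, whereas tamoxifen libraries 3 and 4 held 2694 and 2597 and raloxifene library 3 held 2884. Its 5S rRNA genes and pseudogenes held 2118 counts, with 1022 and 1279 in the tamoxifen libraries and 1311 in raloxifene library 3. Counts of the 37 mitochondrial genes differed in another way, since they came to 12228 to 12803 in every one of the 12 libraries, whatever the library total. As a share of the library they were therefore highest in the shallowest one, 0.347% in raloxifene library 4 against 0.168% and 0.212% in the tamoxifen libraries and 0.161% in raloxifene library 3. The share of the 41 snRNA genes likewise was 0.0584% in raloxifene library 4, against 0.0271% and 0.0342% with tamoxifen and 0.0285% in raloxifene library 3. What sets this library apart was not tested, and the calls and the main counts of genes higher with tamoxifen are also given without it.

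**Figure D1:**
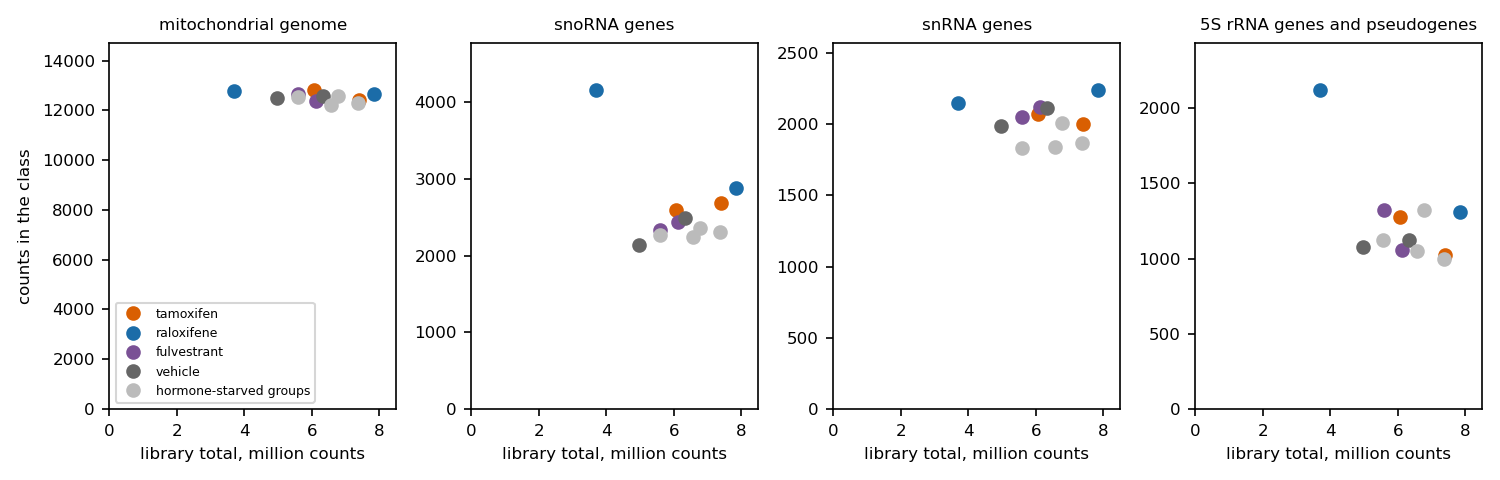
Counts in 4 classes of RNA genes (vertical axes) against the library total (horizontal axes), 1 point per library, coloured by treatment. Mitochondrial counts stay between 12228 and 12803 in all 12 libraries, and raloxifene library 4, at the far left, has the highest snoRNA and 5S counts (4158 and 2118).

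After 1 h, 1 gene differed between the drugs by the test, which does not show that the other genes were alike. RUNX1, which encodes a Runt-domain transcription factor mutated in leukaemia and in a share of estrogen receptor-positive breast tumours, was higher with tamoxifen than with raloxifene. It was the only gene past the threshold (adjusted p under 0.05 over 23375 genes by the quasi-likelihood test of edgeR with Benjamini-Hochberg adjustment), which is 0.00428% of those tested, and 0 genes were lower. DESeq2 also called 1 gene higher and 0 lower. An unadjusted p under 0.05 was reached by 556 genes higher (2.38%) and 505 lower (2.16%) with tamoxifen, together 4.54% of all genes. Without raloxifene library 4 it was reached by 565 genes higher and 669 lower, and without raloxifene library 3 by 696 higher and 905 lower. Against vehicle, 1 gene was higher (0.00428%) and 11 were lower (0.0471%) with tamoxifen, together 0.0513% of tested genes. With raloxifene 21 were higher (0.0898%) and 112 lower (0.479%), together 0.569%. Without raloxifene library 4, 62 genes were higher and 140 lower with raloxifene than with vehicle. Those 2 comparisons share the vehicle libraries, and a gene called with the second drug only is not thereby shown to differ between the drugs.

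RUNX1 (ENSG00000159216, chromosome 21, 34787801 to 35049302, GRCh38) was at 547.7 and 548.4 CPM in the tamoxifen libraries, and at 410.0 and 450.9 CPM in the raloxifene libraries. Fulvestrant libraries were at 296.1 and 299.5 CPM, and vehicle libraries at 761.5 and 735.4 CPM. No 2 of these 4 groups overlapped, and tamoxifen lay nearer to vehicle than raloxifene did. The log2 fold change, tamoxifen over raloxifene, was 0.35 ± 0.051 (standard error of the fit), a 1.28-fold difference with a 95% interval of 0.25 to 0.46 on the log2 scale (edgeR's quasi-likelihood test, adjusted p = 0.0241; DESeq2 adjusted p = 0.00155). RUNX1 fell with both drugs against vehicle, by 0.45 on the log2 scale with tamoxifen (edgeR adjusted p = 0.000423) and by 0.80 with raloxifene (edgeR adjusted p = 2.62e-08). The call between the drugs was lost when the fit held the 4 libraries compared (edgeR adjusted p = 1.0), the 8 libraries in complete medium (0.189) or libraries thinned to the lowest total (0.21). Without tamoxifen library 3 the edgeR adjusted p was 0.0568 and without tamoxifen library 4 it was 0.20, while the log2 fold change stayed at 0.35 in both. Without raloxifene library 3 it was 0.28 (edgeR adjusted p = 0.0271) and without raloxifene library 4 it was 0.42 (edgeR adjusted p = 0.00333).

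The RefSeq promoter window of RUNX1 (build GRCh38.p14, chr21:34888650-34888949, minus strand, 250 bases before the start site and 50 from it) is shown because this is the called gene. It is the 1 window listed for RUNX1 and lies inside the annotated gene. Capitals mark the 50 bases from the start site on.
RUNX1: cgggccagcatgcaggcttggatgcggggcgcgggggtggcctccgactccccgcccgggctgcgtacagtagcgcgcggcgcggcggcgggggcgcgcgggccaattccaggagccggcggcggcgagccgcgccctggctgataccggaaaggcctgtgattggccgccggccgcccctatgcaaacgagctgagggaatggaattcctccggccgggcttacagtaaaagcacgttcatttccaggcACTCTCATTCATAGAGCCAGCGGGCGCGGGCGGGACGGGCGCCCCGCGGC

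With raloxifene library 4 left out, 4 genes were called higher with tamoxifen and 0 lower, namely RUNX1, CXCL12 (0.76 ± 0.10 on the log2 scale, edgeR adjusted p = 0.00213), SFXN2 (0.43 ± 0.067, edgeR adjusted p = 0.00809) and SERPINA6 (0.64 ± 0.094, edgeR adjusted p = 0.00444). With raloxifene library 3 left out instead, so that library 4 alone stood for raloxifene, 162 genes were called lower with tamoxifen and 2 higher, RUNX1 and the unnamed gene ENSG00000260911. Of the 162 genes, 119 were mitochondrial, 5S or other small non-coding RNA genes, including 49 snoRNA genes, 31 5S genes, 21 mitochondrial genes and 12 snRNA genes. Both settings leave a lone raloxifene library, whose spread is assumed to be like that of the other groups. Values of small non-coding and mitochondrial genes are therefore not set against each other between the drugs.

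**Figure D2:**
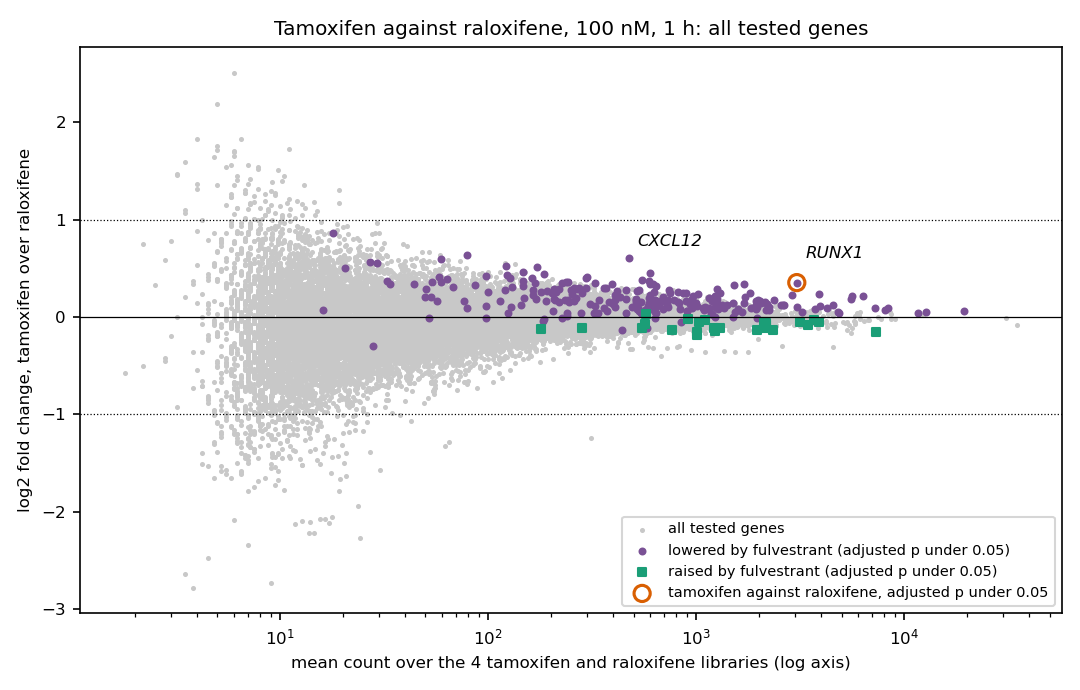
Log2 fold change of tamoxifen over raloxifene (vertical axis) against the mean count in the 4 libraries compared (horizontal log axis), 1 grey point per tested gene. Dotted lines mark 2-fold. Genes that fulvestrant lowered (245, purple) lie mostly above 0, those that it raised (25, green squares) mostly below, and RUNX1, the only gene with an adjusted p under 0.05, is circled.

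The precision bounds how far the drugs could differ, if the spread shared by all 6 groups holds for both drugs. The libraries of a group agreed less with each other under tamoxifen and raloxifene than in the other groups. The intervals that follow may therefore be too narrow. The 95% interval of the difference lay inside a 2-fold range in either direction for 18234 of 23375 genes (78%). Among the 14670 genes with a mean of at least 50 counts in the 4 libraries it did so for 14594 (99.5%), and it lay inside a 1.5-fold range for 91.5%. The median standard error was 0.112 on the log2 scale for these genes and 0.161 for all tested genes. ESR1, which encodes the receptor that both drugs bind, illustrates this at high depth. ESR1 was at 1871 and 1917 CPM with tamoxifen, 1833 and 1851 with raloxifene, 1700 and 1690 with fulvestrant and 1999 and 1993 with vehicle. Its log2 fold change between the drugs was 0.04 ± 0.040, with an interval of -0.04 to 0.12.

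Below RUNX1, the genes with the smallest p for a higher level with tamoxifen did not pass the threshold, and their values are given as values only. CXCL12, a chemokine gene whose product is the ligand of CXCR4 (ENSG00000107562, chromosome 10, 44370165 to 44385097), was at 86.3 and 97.7 CPM with tamoxifen, 54.2 and 70.2 with raloxifene, 30.0 and 34.3 with fulvestrant and 115.1 and 118.5 with vehicle. The groups did not overlap. Its log2 fold change between the drugs was 0.61 ± 0.098, or 1.52-fold (edgeR adjusted p = 0.063). PXK, which encodes a phox-homology protein of endosomes, was at 257.7 and 284.4 CPM with tamoxifen, 211.9 and 219.3 with raloxifene and 312.0 and 297.9 with vehicle (0.33 ± 0.058). CA12, a membrane carbonic anhydrase gene, was at 315.8 and 315.0 CPM with tamoxifen, 260.5 and 273.5 with raloxifene and 417.3 and 390.8 with vehicle (0.24 ± 0.052). The choice of CXCL12, PXK and CA12 by p favours genes with tamoxifen above raloxifene. That both tamoxifen libraries also lay below the vehicle libraries was not part of that choice. The share of all genes with this order is not given here.

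MYOF, a ferlin gene of membrane repair, was at 940.0 and 943.2 CPM with tamoxifen and 827.9 and 827.6 with raloxifene (0.19 ± 0.041). HDAC11, a histone deacetylase gene, was at 25.8 and 24.5 CPM with tamoxifen and 17.6 and 16.8 with raloxifene (0.54 ± 0.118). FMN1, a formin gene of the actin cytoskeleton, was at 490.4 and 512.8 CPM with tamoxifen and 420.2 and 438.3 with raloxifene (0.23 ± 0.050). The sign of these differences was fixed by the choice of the genes, and their sizes ran from 1.14-fold for MYOF to 1.45-fold for HDAC11. GRIK3, a kainate receptor subunit gene, was at 224.7 and 219.2 CPM with tamoxifen and 183.5 and 179.7 with raloxifene (0.29 ± 0.064). Fulvestrant libraries were at 19.5 and 19.6 CPM for HDAC11, above both raloxifene libraries, and at 190.1 and 181.8 CPM for GRIK3, which overlap them.

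SFXN2, which encodes a mitochondrial sideroflexin, and ARL3, which encodes a small GTPase of cilia, start from a shared region of chromosome 10 and run in opposite directions. SFXN2 was at 300.0 and 310.8 CPM with tamoxifen, 227.1 and 259.2 with raloxifene and 363.4 and 363.1 with vehicle, a log2 fold change between the drugs of 0.34 ± 0.061. ARL3 was at 110.5 and 110.9 CPM with tamoxifen, 87.1 and 87.5 with raloxifene and 129.8 and 128.9 with vehicle, also 0.34 ± 0.066. The fitted values of the pair were alike, 1.26-fold and 1.27-fold. Both genes were picked for a higher level with tamoxifen, and neither passed the threshold (edgeR adjusted p = 0.105 for SFXN2 and 0.223 for ARL3). Whether reads near the shared start are counted for both genes depends on the strand setting, which the available sources do not state. The start sites have 238 bases between them. The RefSeq window of SFXN2 (GRCh38.p14, chr10:102714386-102714685, plus strand) is printed with the bases between the start sites in capitals. ARL3 begins on the minus strand at the base just left of the capitals, and its own window shares 262 bases of the printed window.
SFXN2: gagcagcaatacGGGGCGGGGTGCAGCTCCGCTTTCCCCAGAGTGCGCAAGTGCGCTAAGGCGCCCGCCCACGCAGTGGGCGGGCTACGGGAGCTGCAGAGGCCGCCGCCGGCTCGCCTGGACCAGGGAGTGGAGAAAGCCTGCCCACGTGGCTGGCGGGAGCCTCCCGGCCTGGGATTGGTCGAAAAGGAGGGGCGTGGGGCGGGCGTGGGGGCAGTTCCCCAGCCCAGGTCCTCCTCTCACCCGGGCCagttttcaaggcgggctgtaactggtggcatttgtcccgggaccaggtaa

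The promoters of these 10 genes were searched on both strands for the consensus estrogen response element GGTCANNNTGACC and for a single arm of it, the hexamer AGGTCA. The full element was in 0 of the 10 windows and in 0.057% of all 35116 RefSeq windows of the same length. The hexamer, which shares the letters GGTCA with the full element, was in 2 of the 10, CXCL12 and MYOF, and in 13.8% of all windows. A match describes letters and is not evidence of binding, and these windows leave out distal enhancers. The 2 windows with the hexamer are shown with the match in capitals, CXCL12 at chr10:44385048-44385347 and MYOF at chr10:93482285-93482584, both on the minus strand of GRCh38.p14.
CXCL12: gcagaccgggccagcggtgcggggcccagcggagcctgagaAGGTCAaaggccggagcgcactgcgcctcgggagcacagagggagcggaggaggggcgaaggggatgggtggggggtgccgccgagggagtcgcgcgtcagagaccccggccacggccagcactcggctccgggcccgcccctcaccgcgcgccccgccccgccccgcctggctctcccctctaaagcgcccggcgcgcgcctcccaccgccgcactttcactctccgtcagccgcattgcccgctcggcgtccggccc
MYOF: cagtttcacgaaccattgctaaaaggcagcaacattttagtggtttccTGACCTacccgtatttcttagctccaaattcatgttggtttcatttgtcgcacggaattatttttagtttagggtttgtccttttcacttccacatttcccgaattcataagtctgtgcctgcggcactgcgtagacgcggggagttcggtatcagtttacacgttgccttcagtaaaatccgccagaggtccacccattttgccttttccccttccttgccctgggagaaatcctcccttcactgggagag

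**Figure D3:**
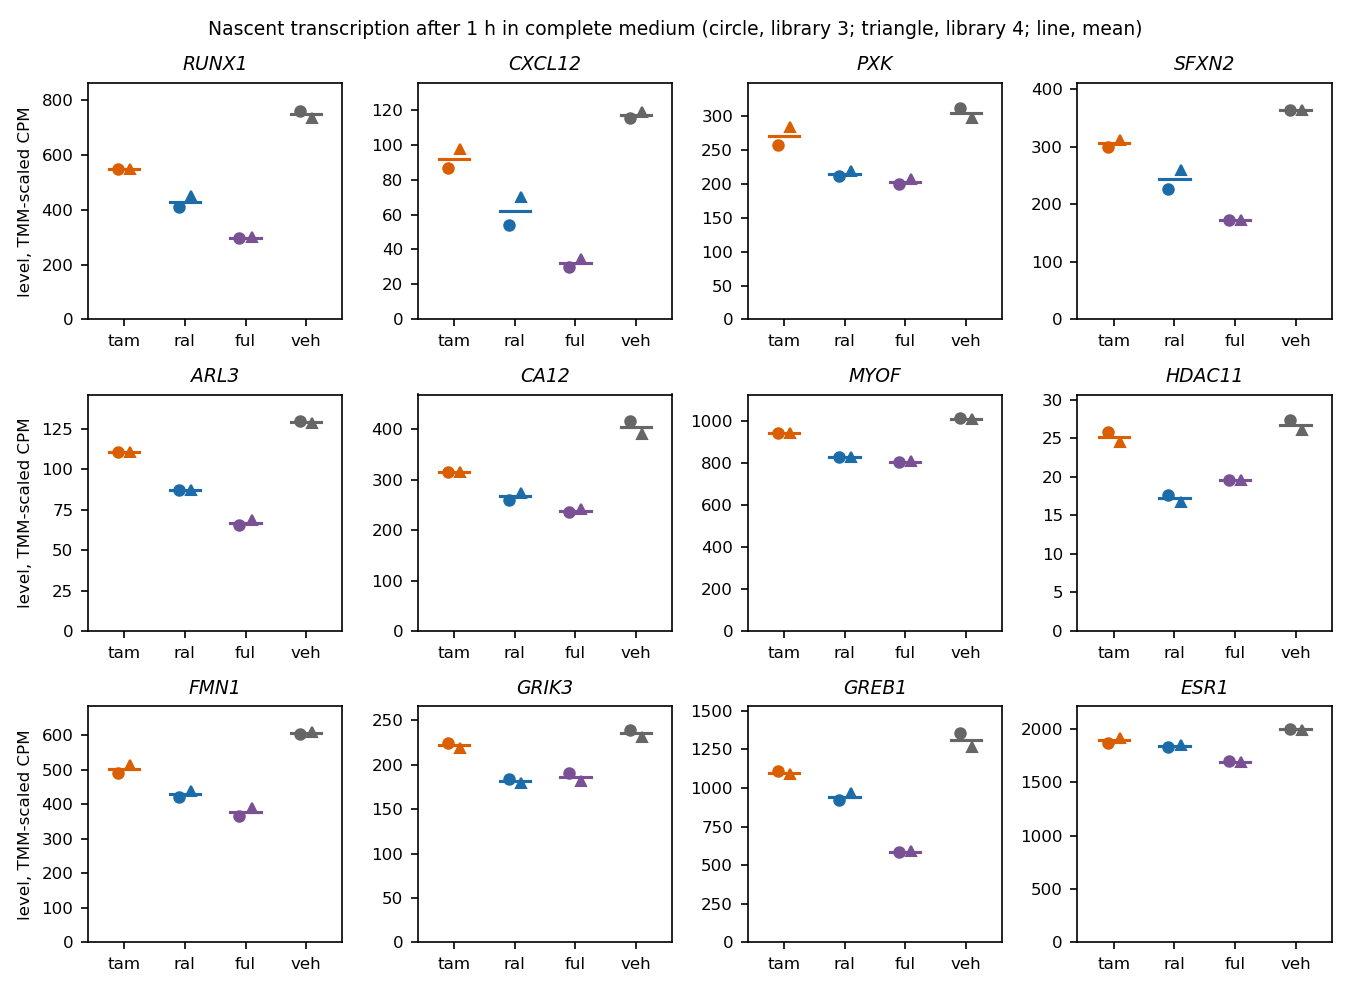
TMM-scaled CPM (vertical axes, from 0) of the 10 genes with the smallest p for a higher level with tamoxifen than with raloxifene, and of GREB1 and ESR1, in tamoxifen (tam), raloxifene (ral), fulvestrant (ful) and vehicle (veh) libraries of complete medium. Circles are library 3, triangles library 4 and lines the mean. RUNX1 lies at 547.7 and 548.4 CPM with tamoxifen and at 410.0 and 450.9 with raloxifene, while ESR1 differs by a log2 fold change of 0.04.

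These 10 genes were picked by their difference between the drugs, and their responses in the libraries of neither drug were then read off. All 10 rose with estradiol in starved cells, where 5.04% of tested genes rose, and 9 of the 10 fell with fulvestrant, where 1.05% of tested genes fell. In either direction 8.77% of tested genes changed with estradiol and 1.16% with fulvestrant. The exception was HDAC11, which changed by -0.45 with fulvestrant (edgeR adjusted p = 0.0725). All 10 were also lower in starved than in complete medium, as were 9.67% of tested genes. That comparison shares the starved vehicle libraries with the estradiol comparison and the complete-medium vehicle libraries with the fulvestrant comparison. The responses are therefore not independent readouts. Among the 50 genes with the smallest p for a higher level with tamoxifen, 39 rose with estradiol, 0 fell with it, and 34 fell with fulvestrant. In starved against complete medium, 32 of the 50 were lower and 3 higher.

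In the other direction 0 genes passed edgeR's test, and the 10 genes with the smallest p had low to moderate levels. BZW1, a translation regulator gene (chromosome 2, 200811589 to 200827338), was at 41.1 and 43.0 CPM with tamoxifen, 51.6 and 53.4 with raloxifene and 42.2 and 38.1 with vehicle (-0.32 ± 0.091). SLC10A7, a transporter-family gene, was at 83.5 and 83.2 CPM with tamoxifen and 97.0 and 100.7 with raloxifene (-0.24 ± 0.073), with vehicle at 98.3 and 91.8. HAUS7, an augmin subunit gene of the mitotic spindle, was at 9.22 and 9.06 CPM with tamoxifen and 15.1 and 12.9 with raloxifene (-0.64 ± 0.185). In BZW1 the tamoxifen libraries lay with vehicle, and in SLC10A7 the raloxifene libraries did. The smallest p belonged to the antisense gene TBX3-AS1 (-0.54 ± 0.132), whose reads cannot be told from those of overlapping genes without strand, and the others were the non-coding genes LINC00674, MIR4713HG and BACH1-IT3 and 3 IDs without a symbol. Of these 10 genes 0 rose and 1 fell with estradiol (BACH1-IT3), and 0 changed with fulvestrant. Among the 50 genes with the smallest p in this direction, 1 rose and 6 fell with estradiol, and 0 changed with fulvestrant. In starved against complete medium, 2 of the 50 were lower and 9 higher. Of all tested genes 5.04% rose and 3.74% fell with estradiol, and 1.16% changed with fulvestrant. In starved medium 9.67% of all tested genes were lower and 9.1% higher.

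Genes chosen in libraries of neither drug were also compared between the drugs. All of them share the same tamoxifen and raloxifene libraries and are not independent replicates, so the counts of genes are a description. Fulvestrant lowered 245 genes against vehicle, and these were higher with tamoxifen than with raloxifene in 233 cases (95.1%), whereas 48.9% of all tested genes were. Their median log2 difference between the drugs was 0.17, with quartiles of 0.09 and 0.27, against -0.003 for all tested genes. Both tamoxifen libraries lay above both raloxifene libraries for 163 of the 245 (66.5%), against 15.4% of all genes, and the opposite held for 2, SYT8 and TFAP2C, or 0.816% against 14%. Of all genes with a mean of at least 50 counts, 54.2% were higher with tamoxifen. In 17.8% of those both tamoxifen libraries lay above both raloxifene libraries, and in 11.6% below. An unadjusted p under 0.05 with tamoxifen higher was reached by 103 of them (42%), against 2.38% of all genes, and with tamoxifen lower by 0. Only RUNX1 passed after adjustment. Without raloxifene library 4 the median was 0.185, and 237 of the 245 were higher with tamoxifen (51.6% of all genes), 105 of them at an unadjusted p under 0.05. Without raloxifene library 3 the median was 0.128, and 208 were higher (51% of all genes), 56 of them at an unadjusted p under 0.05.

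Each library separated in the same way. Relative to the mean of the vehicle libraries, the median of the fulvestrant-lowered genes was -0.23 and -0.16 in tamoxifen libraries 3 and 4, -0.38 and -0.32 in raloxifene libraries 3 and 4, and -0.60 and -0.55 in fulvestrant libraries 3 and 4. The drugs therefore fell in the order tamoxifen, raloxifene and fulvestrant by distance from vehicle, with no overlap of libraries. These genes were chosen with the vehicle and fulvestrant libraries, so the distances from vehicle are a description, and only the difference between tamoxifen and raloxifene is free of that choice. The 25 genes that fulvestrant raised (0.107% of those tested) showed the opposite sign. Their median difference between the drugs was -0.11, 24 of the 25 were below 0, and both tamoxifen libraries were below both raloxifene libraries for 16 of them (64%, against 14% of all genes). EFEMP1, a matrix protein gene, was the exception at 0.03 ± 0.091. Without raloxifene library 4, and likewise without library 3, 22 of the 25 were below 0. EPHA4, an ephrin receptor gene, was at 149.0 and 158.7 CPM with tamoxifen, 165.3 and 186.8 with raloxifene and 136.3 and 130.7 with vehicle, and FNIP1, a folliculin partner gene, at 349.3 and 375.2 CPM with tamoxifen, 389.2 and 408.3 with raloxifene and 300.4 and 319.3 with vehicle. ABCC5, an organic anion transporter gene and the only gene called higher with tamoxifen than with vehicle, was at 342.0 and 341.8 CPM with tamoxifen, 352.4 and 372.8 with raloxifene and 268.8 and 279.2 with vehicle (-0.08 ± 0.050 between the drugs).

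**Figure D4:**
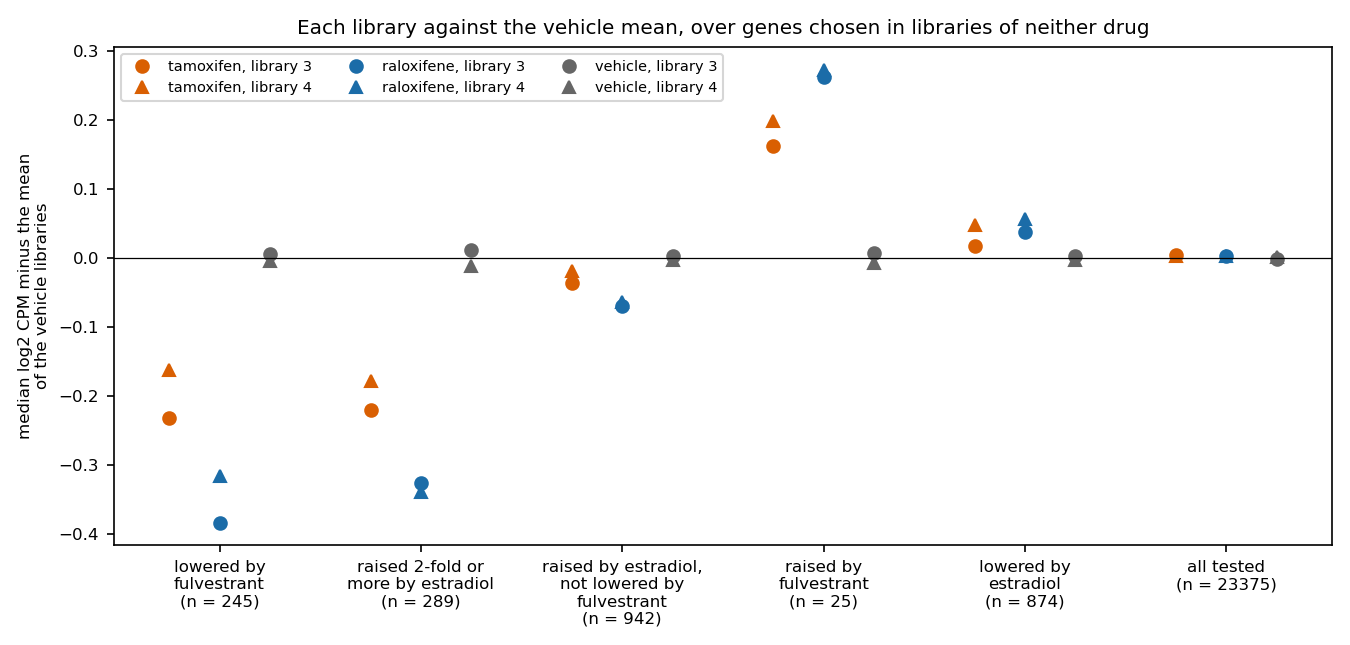
Median over genes of the log2 CPM of each library minus the mean of the 2 complete-medium vehicle libraries (vertical axis), for sets of genes chosen in libraries of neither drug (horizontal axis, with the number of genes). Among genes lowered by fulvestrant the tamoxifen libraries sit at -0.23 and -0.16 and the raloxifene libraries at -0.38 and -0.32, and over all tested genes each library sits within 0.008 of 0.

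Estradiol gave a second choice of genes, made in starved cells and so without any library of complete medium. The 1177 genes that estradiol raised had a median log2 difference of 0.07 between the drugs, and 857 of them (72.8%) were higher with tamoxifen, against 48.9% of all genes. Without raloxifene library 4 this held for 884 (75.1%), and without library 3 for 781 (66.4%). Both tamoxifen libraries were above both raloxifene libraries for 425 (36.1%, against 15.4% of all genes), and the opposite held for 80 (6.8%, against 14%). At a mean of at least 50 counts these shares of all genes were 54.2% higher, 17.8% above and 11.6% below. Against the vehicle mean, the median of these genes was -0.06 and -0.05 in the tamoxifen libraries and -0.11 in each raloxifene library. The 289 genes that estradiol raised at least 2-fold had a median of 0.15 between the drugs. For them the medians against vehicle were -0.22 and -0.18 with tamoxifen and -0.33 and -0.34 with raloxifene. The 874 genes that estradiol lowered (3.74% of those tested) had a median of -0.03, with 39.4% of them higher with tamoxifen. The 2260 genes that were lower in starved than in complete medium had a median of 0.04, and the 2126 that were higher (9.1% of those tested) had one of -0.01. In either direction 18.8% of tested genes differed between the media.

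The estradiol-raised genes were not alike. Those that fulvestrant also lowered (235) had a median of 0.17 between the drugs, and those that it did not lower by the test (942) had a median of 0.04. The size of the difference followed the size of the response to fulvestrant. Among the 14670 genes with a mean of at least 50 counts, the median between the drugs was 0.31 for the 34 genes that changed by -1 or below with fulvestrant, 0.17 for the 145 between -1 and -0.5, and 0.06 for the 635 between -0.5 and -0.25. It was 0.01 for the 13132 genes within 0.25 of no change and -0.05 for the 724 above 0.25. The exception to the sign among the first 34 was the pseudogene RAD17P1 at -0.02 ± 0.271. SPINK4, a peptidase inhibitor gene that changed by -1.96 with fulvestrant, differed by only 0.05 ± 0.114 between the drugs, at 39.0 and 39.3 CPM with tamoxifen and 34.3 and 44.0 with raloxifene. By the response to estradiol the medians ran from 0.17 for the 187 genes that rose by at least 1 on the log2 scale to -0.02 for the 1744 that fell by more than 0.25. Across single genes the relation was loose, with Pearson's r of -0.206 with the fulvestrant response and 0.152 with the estradiol response, over genes that share the same libraries and are not independent replicates.

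**Figure D5:**
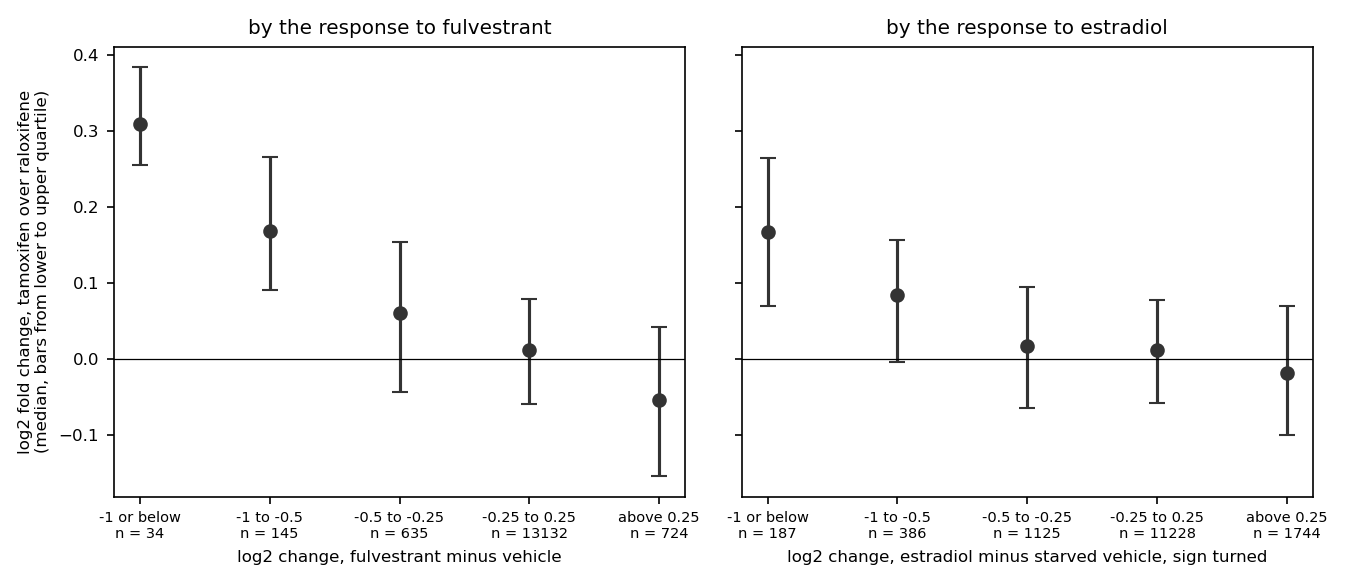
Median log2 fold change of tamoxifen over raloxifene (vertical axis, bars from lower to upper quartile) in bins of the log2 response to fulvestrant (left) and of the response to estradiol with its sign turned, so that genes raised by estradiol are at the left (right). Only genes with a mean of at least 50 counts are used. The medians run from 0.31 to -0.05 with the fulvestrant response and from 0.17 to -0.02 with the estradiol response.

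The fixed list of estrogen-induced genes gives the named targets. Like the lists that follow, it was drawn up with earlier results of these data known, so its counts are a description. Of its 41 genes 39 were in the table and 36 were tested, and 33 of the 36 (91.7%, against 48.9% of all genes) were higher with tamoxifen, with a median log2 difference of 0.20. Of the 36, 0 passed edgeR's test after adjustment, 19 (52.8%, against 2.38% of all genes) had an unadjusted p under 0.05 with tamoxifen higher, and 0 with tamoxifen lower. Without raloxifene library 4, 33 were higher and 21 had such a p, and without library 3, 29 were higher and 12 had such a p. Against vehicle, 4 of the 36 fell with tamoxifen, where 0.0471% of tested genes fell, and 22 fell with raloxifene, where 0.479% fell. KRT13, a keratin gene, had the largest fitted difference (2.51 ± 0.855), but was at 2.17 and 0.839 CPM with tamoxifen and 0.380 and 0 CPM with raloxifene, which is too low to read. TFF1, a secreted trefoil peptide gene and classical target, was below the filter.

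Transcriptional regulators of the list differed in size. GREB1, a receptor cofactor gene (chromosome 2, 11482888 to 11642788), was at 1110 and 1088 CPM with tamoxifen, 923.7 and 965.1 with raloxifene, 586.3 and 591.1 with fulvestrant and 1354 and 1266 with vehicle (0.22 ± 0.052 between tamoxifen and raloxifene). MYC, a growth-promoting transcription factor gene (chromosome 8, 127735434 to 127742951), was at 102.3 and 113.9 CPM with tamoxifen, 78.7 and 90.2 with raloxifene and 141.7 and 124.0 with vehicle (0.37 ± 0.096). Neither passed after adjustment. In both the tamoxifen libraries lay between raloxifene and vehicle, an order whose share among all genes is not given here. PGR, the progesterone receptor gene, was at 1334 and 1464 CPM with tamoxifen and 1246 and 1386 with raloxifene, which overlap (0.09 ± 0.058). RARA, a retinoic acid receptor gene, overlapped as well (0.08 ± 0.063), and so did NRIP1, a corepressor gene (0.12 ± 0.064). XBP1, a transcription factor gene of the unfolded protein response, was at 193.1 and 215.0 CPM with tamoxifen and 183.3 and 234.7 with raloxifene (-0.01 ± 0.092), where the raloxifene libraries spanned both tamoxifen libraries, and its sign turned when single libraries were left out. PDZK1, a scaffold protein gene, was at 57.2 and 70.5 CPM with tamoxifen, 51.0 and 52.6 with raloxifene and 75.9 and 78.4 with vehicle, without overlap (0.30 ± 0.109).

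The growth factor list holds secreted factors and receptors, and its members with the smallest p are given next to CXCL12. IGFBP4, whose product binds and holds back insulin-like growth factors, was at 98.9 and 100.0 CPM with tamoxifen, 72.7 and 82.8 with raloxifene and 146.3 and 124.4 with vehicle (0.38 ± 0.091). IL6ST, the gene of the signal-transducing cytokine receptor gp130, was at 167.5 and 189.6 CPM with tamoxifen and 148.9 and 154.3 with raloxifene (0.24 ± 0.068). IGF1R, the receptor gene for insulin-like growth factor, was at 758.2 and 771.1 CPM with tamoxifen and 690.5 and 713.4 with raloxifene (0.12 ± 0.044). None of these overlapped between the drugs, and none passed after adjustment. In the whole list of 25 tested growth factor, receptor and chemokine genes 16 (64%, against 48.9% of all genes) were higher with tamoxifen, with a median of 0.09. In 11 of them (44%, against 15.4%) both tamoxifen libraries lay above both raloxifene libraries, and in 3 (12%, against 14%) below. At a mean of at least 50 counts these shares of all genes were 54.2% higher, 17.8% above and 11.6% below. The 4 with an unadjusted p under 0.05 (16%, against 2.38% with tamoxifen higher) were IGFBP4, IL6ST, IGF1R and CXCL12, all members of the estrogen-induced list too.

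CXCL12, IGFBP4, CLIC6, KCTD6, HEY2, SERPINA6 and MYBL1 were on the list of genes to describe because an earlier account of these data had them lower with raloxifene than with vehicle. That choice used the raloxifene libraries, so their values are a description. HEY2, a Notch-responsive repressor gene, was at 10.3 and 12.8 CPM with tamoxifen, 6.71 and 9.08 with raloxifene and 17.5 and 17.9 with vehicle. SERPINA6, the gene of corticosteroid-binding globulin, was at 109.8 and 113.4 CPM with tamoxifen, 71.9 and 96.8 with raloxifene and 145.5 and 150.9 with vehicle. MYBL1, a MYB-family transcription factor gene, was at 90.8 and 119.6 CPM with tamoxifen, 87.2 and 92.7 with raloxifene and 171.4 and 161.7 with vehicle. HEY2 and SERPINA6 did not overlap between the drugs and MYBL1 did.

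Genes near these differences were also read, a choice made after the values were seen. Within 300 kb of the 10 genes lay 45 other tested genes with a mean of at least 50 counts, at 8 of the 10 loci, and 30 of the 45 were higher with tamoxifen, with a median of 0.05. Of all genes at that depth 54.2% were higher, with a median of 0.01. CLIC6, a chloride channel family gene beside RUNX1, was at 20.9 and 25.5 CPM with tamoxifen and 15.3 and 17.3 with raloxifene (0.52 ± 0.137). LINC00160, a non-coding gene between them, was at 10.8 and 13.4 CPM with tamoxifen and 9.37 and 10.4 with raloxifene (0.30 ± 0.186), a sign that turned when all libraries were thinned to the lowest total. TRIM8, a ubiquitin ligase gene beside ARL3, differed by 0.42 ± 0.100. Beside PXK, PDHB, a pyruvate dehydrogenase subunit gene, differed by 0.35 ± 0.126 and KCTD6 by 0.27 ± 0.130. LINC02568, a non-coding gene beside CA12, differed by 0.25 ± 0.115. APH1B, on the other side of CA12, went the other way at -0.31 ± 0.148, and RCAN1 near RUNX1 differed by only 0.09 ± 0.108. Counts of close neighbours can share reads where strand is not used, so these values are not independent of the first gene of each locus.

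The remaining lists had these medians between the drugs, with -0.003 for all tested genes. Nuclear receptors and cofactors (32 tested genes) had a median of 0.02, G1/S genes (30) 0.02, G2/M genes (23) -0.02 and ribosome biogenesis genes (34) -0.01. Luminal markers (20), cholesterol synthesis genes (24), p53 targets (20), interferon-stimulated genes (22), BCL2 family genes (15), Notch genes (15) and housekeeping genes (17) had medians between -0.03 and 0.01, and estrogen-repressed genes (11) had one of -0.04. In all lists 0 members passed after adjustment. The unfolded protein response genes (22) had a median of -0.05, with 3 of the 22 higher with tamoxifen (13.6%, against 48.9% of all genes) and both tamoxifen libraries below both raloxifene libraries in 7 (31.8%, against 14%). Heat shock genes (16) had a median of -0.06, with 6 of the 16 higher (37.5%), and NRF2 genes (16) one of 0.02, with 8 higher (50%). Among the stress genes HSPH1, a heat shock cochaperone gene, was at 21.8 and 23.2 CPM with tamoxifen and 29.1 and 27.5 with raloxifene (-0.35 ± 0.141), and OSGIN1, an oxidative stress growth inhibitor gene, at 112.6 and 104.9 CPM with tamoxifen, 92.7 and 89.4 with raloxifene and 146.5 and 134.4 with vehicle (0.25 ± 0.073). Immediate-early genes (32) had a median of -0.04, with 13 of the 32 higher with tamoxifen (40.6%). Progestin, androgen and glucocorticoid targets (17) had one of -0.06, with 2 of the 17 higher (11.8%) and both tamoxifen libraries below both raloxifene libraries in 3 (17.6%).

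Off-target lists gave little to read. Among aryl hydrocarbon receptor targets 7 of 10 were tested, with a median of 0.06, including NFE2L2, the NRF2 gene, at 115.8 and 111.8 CPM with tamoxifen and 107.6 and 106.7 with raloxifene (0.09 ± 0.066). Of 18 genes that metabolise or export these drugs in the body, 10 were below the filter and 8 were tested. Their median was -0.43, with 2 of the 8 higher with tamoxifen, and levels were low, for example for ABCB1, a drug efflux pump gene, at 4.61 and 2.85 CPM with tamoxifen and 5.19 and 7.15 with raloxifene (-0.63 ± 0.295), and for 2 of the 8 the interval lay inside 2-fold. The markers of basal and mesenchymal cells that passed the filter (10) had a median of -0.17, and those of stroma, endothelium and blood (4) one of 0.04. VWF, an endothelial gene, was at 2.98 and 1.68 CPM with tamoxifen and 5.95 and 3.58 with raloxifene.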

How the data were processed

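PRO-seq was measured in 12 libraries of T47D cells, 6 groups of 2. The values are the authors' deposited counts, unscaled whole numbers for each Ensembl ID. The submitters' processing notes name build hg38 and the tools Bowtie2 2.4.4, cutadapt 1.8.1 and SAMtools 1.9. How reads were assigned to genes, with which annotation and whether by strand, is not given in sources used here, so counts of overlapping and antisense genes are uncertain. Of 60605 IDs, 60463 had a symbol in the reference table, and the ID with the highest total was kept per symbol, which left 59410 genes. Positions are those of RefSeq, GRCh38.p14.

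Libraries were grouped by their labels, whose descriptions number them 3 and 4. R 4.3.3 and edgeR 4.0.16 were used: filterByExpr (23375 genes left), TMM scaling, and a quasi-likelihood fit of the 6 groups to all 12 libraries, with Benjamini-Hochberg adjustment over all tested genes and a threshold of 0.05. Intervals are 95% intervals of the fit, and 1 pair of compounds was compared. DESeq2 1.42.0 was an alternative, beside other scalings, no filter, fewer libraries in the fit, the library number as a block, thinning to the lowest total and leaving out each library. The fit was tested on simulated data. No library pair agreed within sampling noise. Chi-square per gene was 2.16 for the tamoxifen pair and 2.34 for the raloxifene pair, and from 1.2 to 1.65 in the other groups. Named genes were up to 10 genes per direction and comparison, filled up by smallest p where fewer than 10 passed (mean of at least 50 counts), up to 4 members of each of 23 fixed lists, and a fixed set of estrogen targets; neighbours, and genes that break a stated count, were named after their values were seen. Members and lists were chosen with earlier results of these data known. The sets of genes raised by fulvestrant, lowered by estradiol or raised by starvation, the 2-fold and overlapping sets and the bins were added after the data were seen. Sets use the same fit, so their calls share its estimate of spread with the tamoxifen and raloxifene libraries.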

Additional observations from a re-analysis of the deposited data

How the results depend on the processing

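The number of genes called changed with the processing. With tamoxifen against raloxifene, 1 gene was called with DESeq2 size factors, with unscaled libraries and with DESeq2, 65 without a filter on low counts (21 higher, 44 lower), and 0 when the fit held only the 4 libraries compared, only the 8 libraries in complete medium, or libraries thinned to the lowest total. Leaving out 1 library gave 0 to 164. RUNX1 kept its direction in all alternatives (0.28 to 0.42) and lost its call in 5, with an edgeR adjusted p of 1.0, 0.189 and 0.21 in those 3 fits, 0.0568 without tamoxifen library 3 and 0.20 without tamoxifen library 4. With tamoxifen against vehicle, 12 genes became 93 without a filter, 21 with DESeq2, 21 with only the libraries compared, 5 with the 8 libraries, 5 after thinning and 0 to 13 without single libraries. With raloxifene against vehicle, 133 became 354 without a filter and 29 to 204 without single libraries. The median of estradiol-raised genes (0.066) was 0.077 without a filter and 0.081 after thinning. The medians of all 3 sets stayed above 0 in every alternative run, from 0.128 to 0.185 for fulvestrant-lowered and from 0.020 to 0.054 for starvation-lowered genes. Genes inside the 2-fold bound ranged from 15394 to 23067. Counts without single raloxifene libraries were added after the data were seen. Unadjusted p under 0.05 was reached by 669 to 905 genes lower with tamoxifen, by 56 to 105 fulvestrant-lowered genes higher and 0 to 1 lower, by 3 fulvestrant-raised genes lower either way (with 3 of 25 above 0 either way), by 95 to 161 estradiol-raised genes higher and 9 to 31 lower, and by 12 to 21 genes of the estrogen-induced list higher and 0 to 1 lower. What causes these shifts was not tested.

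The labels do not say that a library number is shared between groups. Deviations of same-numbered libraries from their group means correlated with r from 0.099 to 0.423 over 15 pairs of groups (0.423 for tamoxifen and raloxifene, with 2 numbers only). With the library number as a replicate block, 35 genes were called between the drugs (26 higher, 9 lower), among them CXCL12, PXK, SFXN2, ARL3, CA12, MYOF, HDAC11, FMN1, GRIK3, GREB1, IGFBP4, MYC and SERPINA6. Against vehicle 172 were called with tamoxifen and 490 with raloxifene, and the median of estradiol-raised genes was 0.055. Of 803 values of 67 named genes under these alternatives, 754 kept direction and call, 33 gained and 5 lost the call, and 11 changed sign, all in 5 genes near 0 or at low counts. XBP1 was 0.002 without a filter and -0.207 to 0.154 without single libraries, and RAD17P1 was 0.007 without a filter, 0.027 after thinning and -0.558 to 0.411 without single libraries. LINC00160 was -0.16 after thinning, and without single libraries SPINK4 ranged from -0.172 to 0.192 and EFEMP1 from -0.042 to 0.104.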
